A study of Mus musculus with 6 samples.

Results

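The genes described here are the ligands, receptors and co-receptors of the vascular endothelial growth factor (VEGF) family: the ligands *Vegfa*, *Vegfb*, *Vegfc* and *Pgf*, the receptor tyrosine kinases *Flt1*, *Kdr* and *Flt4*, and the neuropilins *Nrp1* and *Nrp2*. Their levels were read in CD31 bead fractions of tumors, which the study calls tumor endothelial cells (TECs). The genes were chosen by name, and all 9 had a row among the 23473 RefSeq rows of a bulk RNA-seq table with 56826 rows in total, the others being FANTOM3 cDNA clones. VEGF-A drives the growth and permeability of blood vessels mainly through Kdr, whereas Flt1 binds VEGF-A tightly, signals weakly in endothelium and is also made as a soluble decoy. Placental growth factor, the product of *Pgf*, and VEGF-B bind Flt1 but not Kdr, and VEGF-C acts through Flt4, the receptor best known from lymphatic vessels. The neuropilins bind VEGF isoforms beside these receptors and also bind class 3 semaphorins. During sprouting, Notch signaling acts between neighbouring endothelial cells downstream of Kdr, and the samples address what sustained Notch activity in the endothelium does to gene expression in tumor vessels.

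The series compared 3 NIC eCA libraries with 3 Ctrl libraries of TECs from Lewis lung carcinoma (LLC) tumors grown in C57BL/6 mice, with an age of 8 weeks in the labels. NIC eCA mice carried the Cdh5-Cre ERT2 driver and a Rosa26 allele in which a floxed stop cassette precedes the Notch1 intracellular domain, so that tamoxifen switches the domain on in cells that express Cdh5. The driver is named here as in the sample labels, and the study's paper writes it as Cdh5-Cre ERT. Ctrl mice are labelled wild type. The study's methods place tumor cell injection on the day after the last tamoxifen dose, without naming groups. No source used here says outright whether Ctrl mice received tamoxifen. Cells were pulled from digested tumors with CD31 beads, and CD31 (*Pecam1*) is also found on platelets and some leukocytes. The labels say that tumors were taken on different days without giving the day of each sample, while the study's methods give 1 day for all, so a part of day in any difference was not tested. Each library held 35303191 to 39823498 reads over all rows, and replicates of a group differed from each other by far more than counting error. Ribosomal RNA (*Rn45s*) made up 3.86%, 6.4% and 1.87% of RefSeq reads in Ctrl replicates 1 to 3 and 0.82%, 1.06% and 1.92% in NIC eCA replicates 1 to 3, with Ctrl replicate 2 the highest, and its part in the results was not tested. *Notch1* itself (chromosome 2, 26457902 to 26503822) had 14.3, 8.19 and 13.8 RPKM (reads scaled to row length and library depth) in Ctrl replicates 1 to 3 and 12.3, 13.6 and 12.6 RPKM in NIC eCA replicates 1 to 3. These groups overlapped, and a value over the whole gene does not separate the transgene from the endogenous transcript.

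The endothelial label was checked first. All 16 endothelial markers were detected, with *Pecam1* the most abundant, and their summed level was 733, 287 and 365 RPKM in Ctrl replicates 1 to 3 and 610, 792 and 736 RPKM in NIC eCA replicates 1 to 3. Ctrl replicate 1 thus stood apart from the other Ctrl libraries and lay within the NIC eCA range. All 16 had a positive log2 fold change (NIC eCA over Ctrl, on the log2(RPKM + 1) scale used throughout), with a median of 0.66 against -0.05 over the 12320 genes tested (1.04 without Ctrl replicate 1 and 0.39 without Ctrl replicate 2). None of the 16 was called by limma with all 6 libraries, and voom on recovered reads called 0. At an unadjusted p under 0.05 (limma), 6 were higher and 0 lower, while the 4377 of 12320 genes that passed include both directions. Without Ctrl replicate 1, 13 of 16 were called higher. A gene called here had an adjusted p under 0.05 (limma), which held for 5.88% of all tested genes in the higher and 7.68% in the lower direction.

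The libraries also held abundant RNA of other cells. The 9 macrophage markers with a row summed to 9926, 7043 and 6950 RPKM in Ctrl and 9195, 8369 and 5370 RPKM in NIC eCA, led by *Lyz2* and far above the endothelial sum in every library. Of these, 3 were called higher and none lower, and the median log2 fold change of -0.17 changed sign without Ctrl replicate 1 (0.03) or NIC eCA replicate 3 (0.10) and after quantile normalization (0.01). The 9 neutrophil markers with a row summed to 211, 263 and 363 RPKM in Ctrl and 762, 1128 and 1899 RPKM in NIC eCA, led by *S100a9*, and 7 of 9 were called higher (5.88% of all tested genes). The 8 platelet markers summed to 126, 114 and 197 RPKM in Ctrl and 1307, 1211 and 1175 RPKM in NIC eCA. That sum came almost wholly from *Pf4* and *Ppbp*, the 2 of 3 tested genes that were called higher. The other tested gene, *Itga2b*, was not called (log2 fold change 0.26, SE 0.21, adjusted p = 0.416, limma). *Gp6* (singled out after its values were seen) stayed below 0.1 RPKM, with 1 to 4 reads per library. It was not tested, and was higher in NIC eCA without overlap, as were 16.5% of all tested genes.

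Markers of further cell types were also read. The 8 fibroblast markers, led by *Col3a1*, summed to 324, 561 and 390 RPKM in Ctrl and 202, 160 and 322 RPKM in NIC eCA, with 3 of 7 tested genes called lower and 1 higher (7.68% and 5.88% of all tested genes). The 8 mural cell markers, led by *Rgs5*, summed to 38.4, 32.7 and 46.4 RPKM in Ctrl and 74.0, 61.9 and 115 RPKM in NIC eCA, with 2 of 7 tested genes called higher. The 7 T and NK cell markers with a row, led by *Nkg7*, summed to 32.7 to 54.7 RPKM over the 6 libraries, with groups that overlapped and none of 7 called by limma or by voom (1 had an unadjusted p under 0.05). The 7 epithelial markers, led by *Cdh1*, summed to 6.28 to 12.4 RPKM, again with overlap, and 1 of the 2 tested was called lower. With 1 library left out, these calls numbered 2 to 7 for neutrophil, 0 to 3 for macrophage, 0 to 4 for fibroblast (lower), 0 to 1 for mural and 0 to 1 for epithelial markers, each at its lowest without NIC eCA replicate 2 among others, while 2 platelet markers were called each time. In bulk samples, fewer cells of a type and less RNA per cell cannot be told apart, and the part that these shifts had in the results below was not tested.

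**Figure D1:**
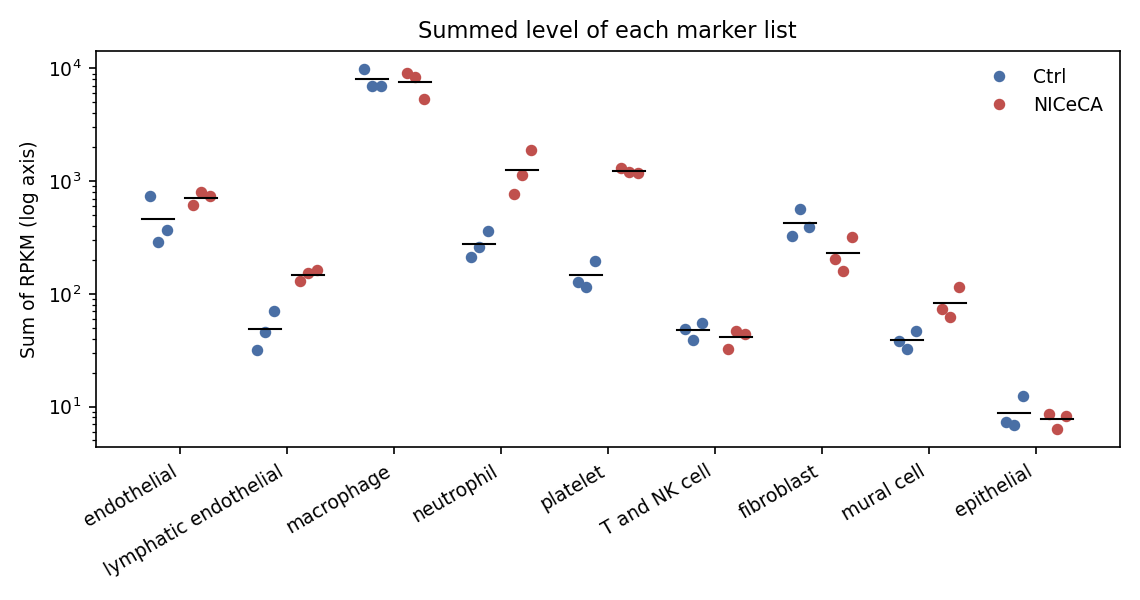
Summed RPKM (log axis) of each marker list in every library, with Ctrl in blue, NIC eCA in red and a black line at the mean of 3 libraries. Macrophage sums of 5370 to 9926 RPKM lay above all other lists, and the endothelial sum of Ctrl replicate 1 (733 RPKM) lay within the NIC eCA range. Sums of the groups did not overlap for neutrophil, platelet, mural, lymphatic and, by a narrow margin, fibroblast markers.

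Within the VEGF family, *Vegfa*, *Pgf* and *Flt1* were called higher in NIC eCA libraries, 3 of 9 members, and none was called lower. Across all tested genes 5.88% were called higher, 7.68% lower and 13.6% in either direction. Of the calls made in each setting, 43.4% were higher with the RPKM as deposited (1671 calls), 57.6% after quantile normalization, 57.2% after trimmed mean scaling and 33.8% with voom. At an unadjusted p under 0.05, 4 members were higher and 1 was lower (4377 of all 12320 in either direction), and voom called 3 higher and 0 lower (683 and 1337 of all 12320). The median log2 fold change of the 9 was 0.54 (0.34 without Ctrl replicate 2, 0.13 with the endothelial marker level as a covariate), and 7 of 9 were positive against 44.7% of all tested genes. The libraries of the groups did not overlap for 4 members (40.9% of all tested genes), 3 of them higher (16.5% of all tested genes) and 1 lower (24.4% of all tested genes). Leaving out 1 library at a time gave 0 to 4 members called higher: 4 without Ctrl replicate 1, when *Flt4* was added, 1 without Ctrl replicate 2, and 0 without NIC eCA replicate 1 or 2, when 91 and 26 genes in all were called higher and 14 and 1 lower.

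**Figure D2:**
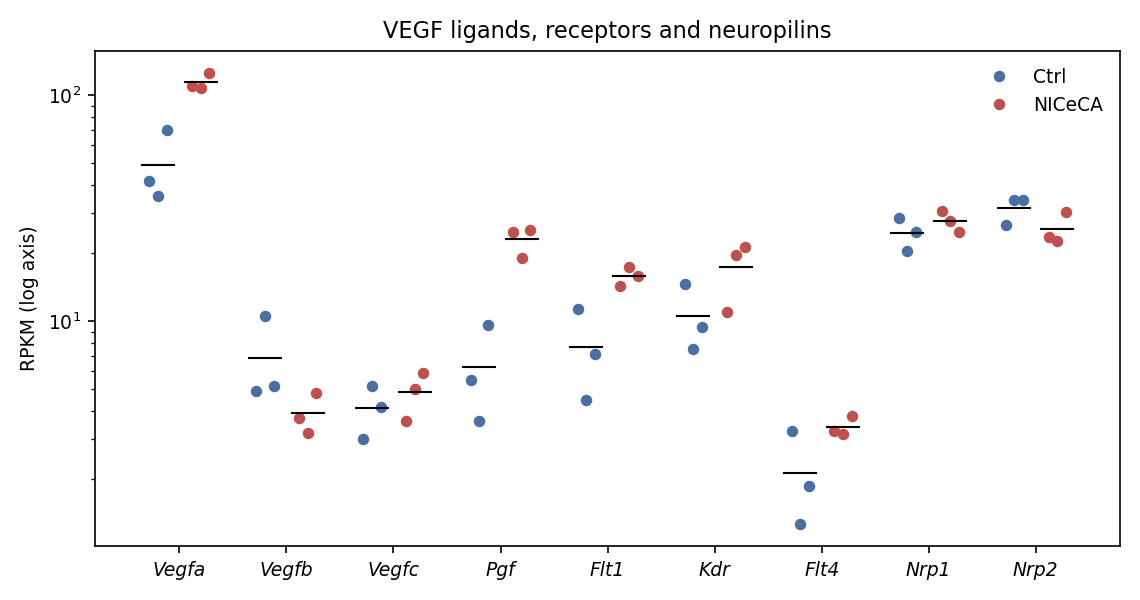
RPKM (log axis) of the 9 VEGF family genes in every library, with Ctrl in blue, NIC eCA in red and a black line at the mean of 3 libraries. *Vegfa*, *Pgf* and *Flt1* were higher in each NIC eCA library than in any Ctrl library, *Vegfb* was lower in each, and the other 5 genes overlapped.

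Among the ligands, *Vegfa* (chromosome 17, 46016993 to 46032377, minus strand; positions are those of GRCm38) had the highest level of the family in all 6 libraries. It stood at 41.7, 35.7 and 70.1 RPKM in Ctrl replicates 1 to 3 and at 111, 108 and 125 RPKM in NIC eCA replicates 1 to 3. Ctrl replicate 3 was the highest control, and still below every NIC eCA library. The group means were 49.2 ± 18.4 and 114.5 ± 9.46 RPKM (SD, n = 3 each), a ratio of 2.33, and the log2 fold change was 1.26 (SE 0.24, adjusted p = 0.0247, limma). The call was lost after quantile normalization (adjusted p = 0.0511), without the filter on low values (0.097), with the endothelial marker level as a covariate (0.165), without Ctrl replicate 2 (0.0511) and without NIC eCA replicate 1 (0.1) or 2 (0.0968), over alternatives that ran from 0.00421 to 0.165. The log2 fold change stayed between 0.98 and 1.54 in all 16 alternatives.

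*Pgf* (chromosome 12, 85166639 to 85177313, minus strand), whose product activates Flt1 on endothelial and myeloid cells, showed the largest change of the family. Its level was 5.50, 3.61 and 9.63 RPKM in Ctrl and 24.9, 19.0 and 25.3 RPKM in NIC eCA, in the order of replicates. The lowest NIC eCA library was thus well above the highest Ctrl library, again replicate 3. Means were 6.25 ± 3.08 and 23.1 ± 3.49 RPKM (SD, n = 3 each), a ratio of 3.69, with a log2 fold change of 1.81 (SE 0.28, adjusted p = 0.0177, limma). The call was lost without the filter (adjusted p = 0.0882), with the endothelial covariate (0.144) and without NIC eCA replicate 1 (0.0822) or 2 (0.0577), over a range of 0.00442 to 0.144, while the log2 fold change ran from 1.52 to 2.13.

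*Vegfb* (chromosome 19, 6982472 to 6987651, minus strand), a Flt1 ligand linked to cardiac and metabolic tissue more than to sprouting, went the other way in level. It had 4.91, 10.6 and 5.16 RPKM in Ctrl and 3.74, 3.18 and 4.80 RPKM in NIC eCA. Every NIC eCA library was lower than every Ctrl library, but NIC eCA replicate 3 and Ctrl replicate 1 nearly met, and Ctrl replicate 2 was far above the rest. The log2 fold change of -0.63 (SE 0.27) was not called (adjusted p = 0.134, limma), and was -0.31 without Ctrl replicate 2 and -0.26 with the endothelial covariate. *Vegfc* (chromosome 8, 54077532 to 54186454, plus strand), a lymphangiogenic ligand, had 2.995, 5.18 and 4.16 RPKM in Ctrl and 3.63, 5.0 and 5.88 RPKM in NIC eCA. These groups overlapped, with a log2 fold change of 0.20 (SE 0.21, adjusted p = 0.523, limma) that ran from 0.03 without Ctrl replicate 1 to 0.41 with the endothelial covariate.

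The remaining VEGF ligand gene, *Figf* (now *Vegfd*; chromosome X, 164373548 to 164402647, plus strand), encodes VEGF-D, which like VEGF-C binds Flt4, and was read beside the 9. It had 3.36, 6.91 and 4.37 RPKM in Ctrl and 1.74, 1.13 and 1.98 RPKM in NIC eCA. All NIC eCA libraries were below all Ctrl libraries. *Figf* was called lower, with a log2 fold change of -1.14 (SE 0.23, adjusted p = 0.0301, limma), and this call was lost in 7 of its 15 alternatives, among them leaving out Ctrl replicate 2 (-0.90) and NIC eCA replicate 1 (-1.18) or 2 (-0.998) and the endothelial covariate (-0.74), over adjusted p from 0.0265 to 0.2. Of the 7 tested fibroblast markers, *Col3a1*, *Lum* and *Pdgfra* were called lower and *Postn* higher in the same comparison.

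Of the receptors, *Flt1* (chromosome 5, 147562196 to 147725988, minus strand) had 11.3, 4.46 and 7.19 RPKM in Ctrl and 14.3, 17.4 and 15.8 RPKM in NIC eCA. The NIC eCA libraries lay close together and above all controls, and Ctrl replicate 1, the control with the highest endothelial marker sum, came nearest to them. Means were 7.66 ± 3.46 and 15.8 ± 1.53 RPKM (SD, n = 3 each), a ratio of 2.06, with a log2 fold change of 1.03 (SE 0.27, adjusted p = 0.0442, limma). This call was held in 7 of 16 alternatives, over adjusted p from 0.0268 to 0.232. It was lost after quantile normalization (0.0698), without the filter (0.141), with the replicate number as a block (0.0676), and when any library but Ctrl replicate 1 was left out (0.0735 to 0.162). With the endothelial covariate it was also lost, and the log2 fold change was 0.47 (0.232).

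*Kdr* (chromosome 5, 75933270 to 75978428, minus strand), the main signaling receptor for VEGF-A, had 14.5, 7.56 and 9.38 RPKM in Ctrl and 10.98, 19.6 and 21.4 RPKM in NIC eCA. NIC eCA replicate 1 lay inside the Ctrl range, so the groups overlapped although the NIC eCA mean was higher (17.3 ± 5.57 against 10.5 ± 3.62 RPKM; SD, n = 3 each). The log2 fold change of 0.67 (SE 0.29) was not called (adjusted p = 0.142, limma), nor was it in any of 16 alternatives, and it was 0.13 with the endothelial covariate. *Flt4* (chromosome 11, 49609679 to 49652739, plus strand) was the least abundant member in both groups by mean, at 3.25, 1.27 and 1.87 RPKM in Ctrl and 3.28, 3.17 and 3.79 RPKM in NIC eCA. Ctrl replicate 1 alone reached the NIC eCA level. The log2 fold change was 0.54 (SE 0.22, adjusted p = 0.127, limma), and *Flt4* was called higher only without that library (0.79, adjusted p = 0.0423; range 0.0423 to 0.74), and was at 0.12 with the endothelial covariate.

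The lymphatic markers were read beside *Flt4* and its ligands. Of the 6, *Ccl21a* was at 0 in every library, and only *Lyve1* and *Pdpn* were abundant enough to be tested. *Prox1*, the factor that defines lymphatic identity, *Reln* and *Mmrn1* (singled out after their values were seen) reached at most 0.267, 0.273 and 1.35 RPKM, and for each the lowest NIC eCA library lay above the highest Ctrl library. These genes held only 2 to 39, 4 to 119 and 5 to 233 reads per library and were not tested. Among all tested genes 16.5% were higher without overlap. *Pdpn* was the most abundant and the one called higher (not without NIC eCA replicate 2), and *Lyve1* and *Pdpn* are also known outside lymphatic vessels. *Lyve1* had 3.65, 9.2 and 18.2 RPKM in Ctrl and 17.1, 13.2 and 16.5 RPKM in NIC eCA. It overlapped and was not called (log2 fold change 0.77, SE 0.44, adjusted p = 0.245, limma), although both tested markers were called higher without Ctrl replicate 3. Summed levels were 31.4, 45.9 and 69.8 RPKM in Ctrl and 131, 153 and 162 RPKM in NIC eCA.

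The neuropilins were, after *Vegfa*, the most abundant members in Ctrl libraries by mean. *Nrp1* (chromosome 8, 128359073 to 128505475, plus strand), which enhances VEGF-A binding to Kdr, had 28.6, 20.5 and 24.7 RPKM in Ctrl and 30.7, 27.8 and 24.8 RPKM in NIC eCA. *Nrp2* (chromosome 1, 62703317 to 62818692, plus strand), which also serves VEGF-C and Flt4 and is made by several non-endothelial cells, had 26.7, 34.2 and 34.2 RPKM in Ctrl and 23.6, 22.8 and 30.5 RPKM in NIC eCA. The groups overlapped for both genes, with log2 fold changes of 0.17 (SE 0.16, adjusted p = 0.45, limma) for *Nrp1* and -0.30 (SE 0.16, adjusted p = 0.22, limma) for *Nrp2*. Neither was called in any alternative. With the endothelial covariate they were 0.00 for *Nrp1* and -0.13 for *Nrp2*, and without Ctrl replicate 2 *Nrp1* was at 0.05.

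The order of the mean levels therefore differed between the groups in part. In Ctrl libraries, *Vegfa* was followed by *Nrp2*, *Nrp1*, *Kdr*, *Flt1*, *Vegfb*, *Pgf*, *Vegfc* and *Flt4*. Neighbours in this order overlapped in their library ranges except *Vegfa* with *Nrp2* and *Nrp1* with *Kdr*. In NIC eCA libraries the order was *Vegfa*, *Nrp1*, *Nrp2*, *Pgf*, *Kdr*, *Flt1*, *Vegfc*, *Vegfb* and *Flt4*. There the neighbours were separate only between *Vegfa* and *Nrp1* and between *Flt1* and *Vegfc*, and *Pgf* stood in position 4 instead of 7. These are levels per length, so genes can be set side by side.

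Because the endothelial marker level differed between libraries, each member was also expressed relative to it, as log2(RPKM + 1) minus the mean of the 16 markers in the same library. *Vegfa* then stood at 0.25, 1.30 and 1.98 in Ctrl and at 1.95, 1.5 and 1.83 in NIC eCA. The separation seen in RPKM was gone, since Ctrl replicate 3 was now the highest of the 6 (difference of means 0.58, two-sided exact permutation p = 0.4). Without Ctrl replicate 1 that difference was 0.12, and without Ctrl replicate 3 it was 0.98. With the marker level as a covariate in limma, log2 fold changes were 1.30 for *Vegfa* (SE 0.33) and 1.79 for *Pgf* (SE 0.40). That fit called 0 genes higher and 0 lower. After subtraction of the marker mean, the values of the other called members were as follows. *Pgf* stood at -2.46, -1.69 and -0.76 in Ctrl and at -0.16, -0.94 and -0.44 in NIC eCA, with overlap through Ctrl replicate 3 (difference 1.13, exact permutation p = 0.2; 0.71 without Ctrl replicate 1). *Flt1* was at -1.54, -1.45 and -1.14 in Ctrl and at -0.92, -1.06 and -1.09 in NIC eCA, which left the NIC eCA libraries above all controls by a small margin (difference 0.35, exact permutation p = 0.1).

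The other members were level or lower on this scale. *Kdr* had a mean of -0.93 ± 0.24 in Ctrl and -0.95 ± 0.31 in NIC eCA (SD, n = 3 each), a difference of -0.02 (exact permutation p = 1), and *Flt4* differed by -0.14 (exact permutation p = 0.5). *Nrp1* and *Nrp2* differed by -0.51 and -0.98, with groups that overlapped (exact permutation p = 0.2 and 0.3), and *Vegfc* by -0.49 (exact permutation p = 0.4). *Vegfb* was lower in every NIC eCA library, by a difference of -1.31 (exact permutation p = 0.1), though Ctrl replicate 1 (-2.60) was nearly level with NIC eCA replicate 1 (-2.61). Leaving out 1 library moved these differences by over 1.5 times for *Vegfb* (-0.74 without Ctrl replicate 2), *Vegfc* (-1.03 without Ctrl replicate 1 and -0.08 without Ctrl replicate 2), *Nrp1* (-0.77 without Ctrl replicate 1), *Flt4* (-0.27 to -0.01) and *Kdr*, which changed sign (-0.15 to 0.15). With 3 libraries against 3 the test has 20 assignments and no p below 0.1, so none of these 9 comparisons could pass 0.05.

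**Figure D3:**
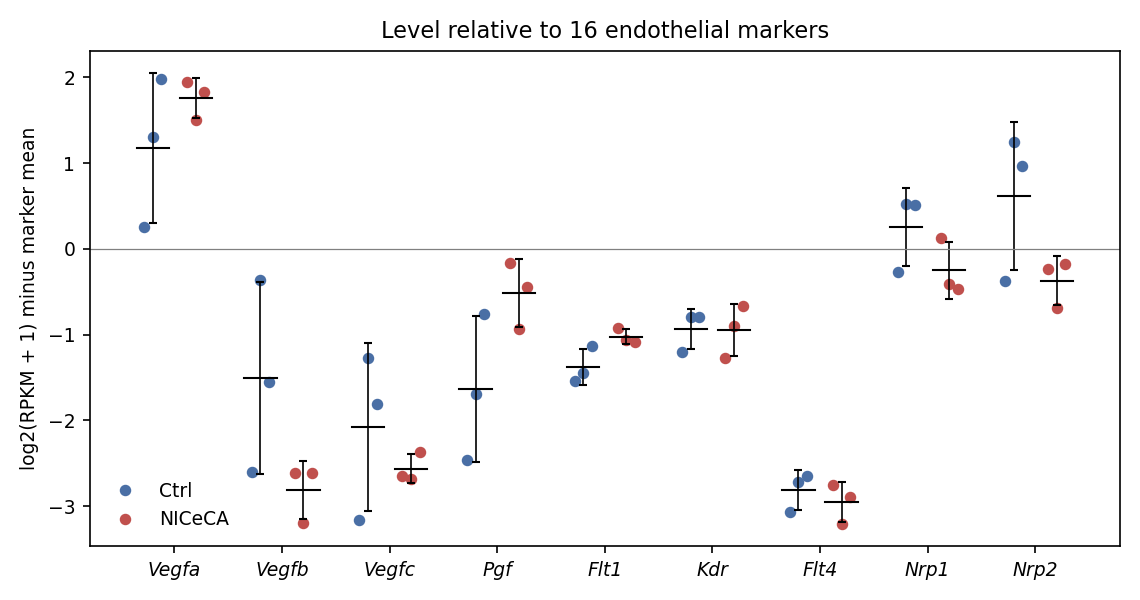
Level of each VEGF family gene relative to the endothelial markers, as log2(RPKM + 1) minus the mean of 16 markers in the same library, with Ctrl in blue, NIC eCA in red and black lines for the mean and SD of 3 libraries. *Flt1* is higher and *Vegfb* lower in each NIC eCA library, both by narrow margins, and *Kdr* means are nearly equal (-0.93 and -0.95).

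Ratios within a library do not depend on its depth. *Pgf* over *Vegfa* was 0.132, 0.101 and 0.137 in Ctrl and 0.225, 0.177 and 0.202 in NIC eCA, so that *Pgf* gained on *Vegfa* in each NIC eCA library (log2 difference 0.71). *Vegfb* over *Vegfa* was 0.118, 0.296 and 0.0736 in Ctrl and 0.0338, 0.0296 and 0.0383 in NIC eCA (log2 difference -2.02). *Vegfc* over *Vegfa* was 0.0719, 0.145 and 0.0593 in Ctrl and 0.0328, 0.0465 and 0.0469 in NIC eCA (log2 difference -1.04). For these 3 ratios the groups did not overlap, with an exact permutation p of 0.1 each and 0.2 after Benjamini-Hochberg adjustment over the 6 ratios computed. All 3 are taken over *Vegfa*, which was itself higher in every NIC eCA library, so they are not independent of its change. *Vegfc* alone overlapped between the groups. Without Ctrl replicate 2 the log2 difference of *Vegfc* over *Vegfa* was -0.65.

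Between receptors and between neuropilins the ratios overlapped. *Flt1* over *Kdr* was 0.779, 0.590 and 0.766 in Ctrl and 1.30, 0.886 and 0.737 in NIC eCA, and only NIC eCA replicate 1 had more *Flt1* than *Kdr* per length (log2 difference 0.43, exact permutation p = 0.3, adjusted 0.36), which became 0.19 without that library. *Nrp1* over *Nrp2* ran from 0.598 to 1.07 in Ctrl and from 0.811 to 1.30 in NIC eCA (log2 difference 0.49, exact permutation p = 0.2, adjusted 0.3; 0.31 without Ctrl replicate 2). *Flt4* over *Kdr* was 0.168 to 0.224 in Ctrl and 0.162 to 0.299 in NIC eCA (log2 difference 0.07, exact permutation p = 0.9, adjusted 0.9), with a negative sign without Ctrl replicate 2 (-0.05) or NIC eCA replicate 1 (-0.21) and with a pseudocount of 1 (-0.12).

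FANTOM3 rows that overlap the members gave further readings of parts of these genes. One row of 1676 bases (chromosome 17, 46016997 to 46018672) lay wholly in non-coding exon sequence at the 3′ end of *Vegfa* in GENCODE vM21. It had 31.2, 25.1 and 53.3 RPKM in Ctrl and 81.1, 80.0 and 94.3 RPKM in NIC eCA, 70.3% to 76.1% of the *Vegfa* value in each library. Its log2 fold change of 1.26 (SE 0.25, adjusted p = 0.0245 over all rows, limma) was that of the whole gene. It shares reads with the *Vegfa* row and is no second measurement.

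In *Flt1*, a row of 1670 bases at the 3′ end (chromosome 5, 147561606 to 147563275), in the last exon of the full-length transcript and running past the end of the deposited *Flt1* row, had 6.04, 2.42 and 3.99 RPKM in Ctrl and 6.78, 7.34 and 6.16 RPKM in NIC eCA. Its level was 53.3%, 54.2% and 55.5% of the *Flt1* value in Ctrl and 47.4%, 42.3% and 39.0% in NIC eCA. That percentage was lower in each NIC eCA library, a comparison singled out after its values were seen and not tested. Its log2 fold change was 0.65 (SE 0.24, adjusted p = 0.0961 over all rows, limma). A second row (chromosome 5, 147644778 to 147646807) matches a retained-intron transcript of GENCODE that includes 1 coding exon, and had 1.84, 0.767 and 1.10 RPKM in Ctrl and 2.16, 2.99 and 2.57 RPKM in NIC eCA. It was called higher over all rows (log2 fold change 0.70, SE 0.20, adjusted p = 0.0497 over all rows, limma) without overlap of the groups. Its level was 16.2%, 17.2% and 15.3% of the *Flt1* value in Ctrl and 15.1%, 17.2% and 16.3% in NIC eCA. That percentage overlapped between the groups. GENCODE also lists a shorter coding *Flt1* transcript of 13 exons that ends in an extended exon (chromosome 5, 147635159 to 147639533), which takes in an exon of the full-length transcript of 30 exons, and no row of the table covers the extension alone, so its level was not measured here.

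Rows of 1 block inside *Nrp1* lay at its ends or in introns, and 2 rows of several blocks that take in exons along the gene overlapped between the groups. A row of 922 bases that takes in the first exon (chromosome 8, 128359253 to 128360174) had 33.5, 29.1 and 32.4 RPKM in Ctrl and 34.9, 34.2 and 29.4 RPKM in NIC eCA, and a row at the 3′ end of the deposited gene row, beyond the last GENCODE exon (chromosome 8, 128504181 to 128505473), had 13.2, 9.13 and 12.2 RPKM in Ctrl and 13.4, 15.9 and 12.8 RPKM in NIC eCA. Both overlapped between the groups, as did *Nrp1* itself. The 4 rows wholly or almost wholly in introns were lower in every NIC eCA library than in any Ctrl library, at 4.41% or less of the *Nrp1* value. That pattern was also common among FANTOM3 rows of low level, a share counted after these values were seen: of 8129 FANTOM3 rows of 1 block with a mean under 1 RPKM and reads in all 6 libraries, 36.7% were lower without overlap and 3% higher. That count was not limited to intron rows, and the *Nrp1* intron rows were not tested against it. The row at chromosome 8, 128437704 to 128440854, for one, had 0.658, 0.574 and 1.09 RPKM in Ctrl and 0.513, 0.270 and 0.332 RPKM in NIC eCA. Their means were under 1 RPKM, so they were not tested, and 2 of them overlap each other.

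Inside *Nrp2*, an intron row (chromosome 1, 62809302 to 62811857) had 1.26, 1.83 and 1.15 RPKM in Ctrl and 0.204, 0.466 and 0.431 RPKM in NIC eCA, with 19 to 186 reads per library. All NIC eCA libraries were lower. Another intron row of *Nrp2* (chromosome 1, 62727808 to 62729437) had 1.04, 2.42 and 0.865 RPKM in Ctrl and 0.336, 0.660 and 1.20 RPKM in NIC eCA and overlapped (log2 fold change -0.47, SE 0.27, adjusted p = 0.24 over all rows, limma). All NIC eCA libraries were again lower for *4930487H11Rik*, a gene on the opposite strand in a *Nrp2* intron (chromosome 1, 62790918 to 62794732). That gene had 2.72, 3.51 and 2.75 RPKM in Ctrl and 0.735, 1.61 and 1.92 RPKM in NIC eCA (log2 fold change -0.75, SE 0.21, adjusted p = 0.0523 among RefSeq rows and 0.0482 over all rows, limma). No source used here says whether counting used the strand, so its reads and those of *Nrp2* introns cannot be told apart. A row of 1171 bases (chromosome 1, 62798137 to 62799307) in the non-coding end of a shorter *Nrp2* transcript, Nrp2-205 in GENCODE, had 5.16, 6.61 and 8.06 RPKM in Ctrl and 2.69, 4.81 and 5.78 RPKM in NIC eCA, with overlap (log2 fold change -0.52, SE 0.24, adjusted p = 0.164 over all rows, limma).

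**Figure D4:**
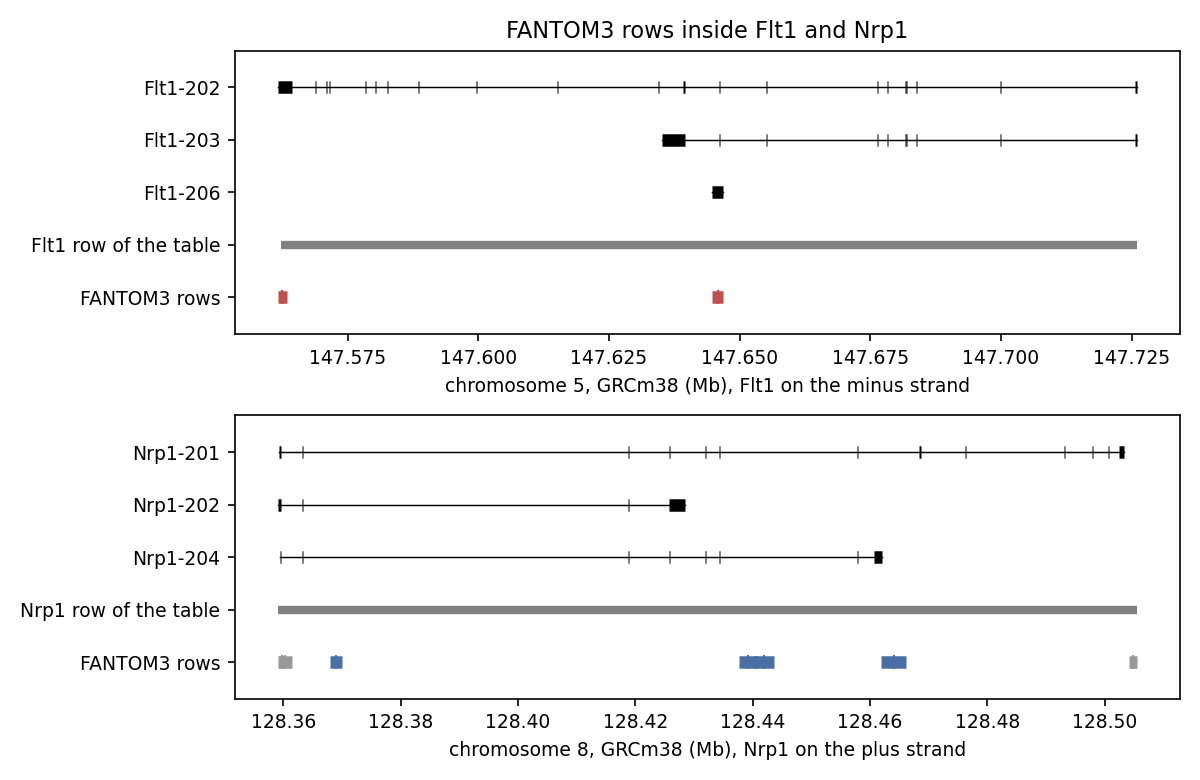
Map of *Flt1* (top) and *Nrp1* (bottom) on GRCm38, with position in Mb on the horizontal axis, GENCODE exons as black boxes, the deposited gene row in grey and single-block FANTOM3 rows below, drawn with a minimum width. Red marks rows higher in every NIC eCA library, blue rows lower in every one and grey rows that overlapped: both *Flt1* rows are red and the 4 *Nrp1* intron rows blue.

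Promoter sequence was read for the 3 called members and for *Kdr*, to show what lies upstream of genes that differ in their call. All 9 members matched RefSeq entries (GRCm38.p6), in 11 windows because *Pgf* and *Vegfa* each have a second start, and the 250 bases before each start were searched on both strands for ACGTG and GCGTG, the core letters bound by hypoxia-inducible factors, which share 4 letters, and for TGGGAA, the core letters bound by the Notch partner RBPJ. Among 32851 promoter windows of that length, 16.6% held ACGTG, 28.2% GCGTG and 21.6% TGGGAA. Of the 11 windows, 1 held ACGTG, 7 held GCGTG and 3 held TGGGAA. The windows of the first starts follow 5′ to 3′ on the gene's own strand, which is the minus strand for all 4, with these motifs in capitals in either orientation.
*Vegfa*, chr17:46032378-46032627, minus strand: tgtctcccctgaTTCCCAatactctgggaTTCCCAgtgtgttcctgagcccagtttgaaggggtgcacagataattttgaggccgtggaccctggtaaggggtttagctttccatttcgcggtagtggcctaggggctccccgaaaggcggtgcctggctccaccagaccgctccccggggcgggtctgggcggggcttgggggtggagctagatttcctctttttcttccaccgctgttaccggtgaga
*Pgf*, chr12:85177314-85177563, minus strand: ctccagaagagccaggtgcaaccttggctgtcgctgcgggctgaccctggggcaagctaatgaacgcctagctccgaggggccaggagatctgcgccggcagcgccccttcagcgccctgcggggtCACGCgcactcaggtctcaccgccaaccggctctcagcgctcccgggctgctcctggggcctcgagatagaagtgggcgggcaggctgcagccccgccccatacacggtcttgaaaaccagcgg
*Flt1*, chr5:147726012-147726261, minus strand: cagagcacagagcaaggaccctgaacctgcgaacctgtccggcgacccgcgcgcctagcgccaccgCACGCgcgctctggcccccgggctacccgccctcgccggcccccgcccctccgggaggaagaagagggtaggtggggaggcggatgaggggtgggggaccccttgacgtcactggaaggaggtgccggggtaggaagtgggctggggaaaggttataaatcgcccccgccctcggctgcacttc
*Kdr*, chr5:75978456-75978705, minus strand: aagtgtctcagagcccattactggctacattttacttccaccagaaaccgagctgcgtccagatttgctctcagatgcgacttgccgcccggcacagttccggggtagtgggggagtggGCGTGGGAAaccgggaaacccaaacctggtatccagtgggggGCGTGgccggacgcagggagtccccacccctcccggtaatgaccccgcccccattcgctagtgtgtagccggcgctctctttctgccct
The 1 window with ACGTG was that of the second *Vegfa* start (chromosome 17, 46025164 to 46025413), not printed here, which also held GCGTG at 1 place and TGGGAA at 2 places. The first *Vegfa* window held TGGGAA at 2 places, read on the opposite strand, and neither of the hypoxia letters. The *Pgf* and *Flt1* windows each held GCGTG at 1 place, also on the opposite strand, and the *Kdr* window held it at 2 places, with TGGGAA at 1 place that shares letters with the first of them. A match gives letters only, and binding was not measured. Bases further upstream were not searched, so a window without the letters does not mean that the gene lacks them. The shares over all windows were not matched for GC content, which ran from 59.2% to 76.4% in the windows of the members.

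Genes known to rise under hypoxia, as *Vegfa* does, were read beside it. Of 20 such genes (with *Vegfa* left out), 15 were called higher and none lower, beside 5.88% higher and 7.68% lower of all tested genes. At an unadjusted p under 0.05 (limma), 18 were higher and 0 lower, and voom called 14 higher and 0 lower. Of the 20, 19 were positive, and the median log2 fold change was 0.96 against -0.05 over all tested genes. The called genes were *Slc2a1*, *Pgk1*, *Ldha*, *Bnip3*, *Adm*, *Pdk1*, *Ndrg1*, *Ankrd37*, *P4ha2*, *Pfkfb3*, *Ddit4*, *Ero1l*, *Aldoa*, *Eno1* and *Bhlhe40*. *Slc2a1*, the basal glucose transporter, had 32.5, 43.8 and 79.3 RPKM in Ctrl and 175, 142 and 184 RPKM in NIC eCA, with Ctrl replicate 3 the highest control as for *Vegfa* (log2 fold change 1.76, SE 0.30, adjusted p = 0.0206, limma). *Bnip3*, a mitophagy receptor, had the largest change, from 14.3, 13.7 and 32.9 RPKM in Ctrl to 110, 101 and 98.3 RPKM in NIC eCA (log2 fold change 2.40, SE 0.30, adjusted p = 0.0109, limma). *Ankrd37* and *Ndrg1* had log2 fold changes of 1.38 and 1.32. The list had 9 calls without Ctrl replicate 1, 8 without Ctrl replicate 2, 16 without Ctrl replicate 3, 3 without NIC eCA replicate 1, 1 without NIC eCA replicate 2 and 9 without NIC eCA replicate 3.

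Among 30 transcription factors and oxygen sensors that act on VEGF genes, 26 were tested, 2 were called higher and none lower (3 were lower at an unadjusted p under 0.05, and 1 was called lower by voom), with a median of 0.24 (0.13 without Ctrl replicate 2, -0.05 with the endothelial covariate). The higher count was near the share of all tested genes, of which 5.88% were called higher and 7.68% lower. *Egln3*, a prolyl hydroxylase that marks HIF proteins for breakdown and is itself induced by hypoxia, had 5.04, 12.6 and 20.5 RPKM in Ctrl and 41.4, 35.2 and 53.4 RPKM in NIC eCA. All NIC eCA libraries were higher (log2 fold change 1.86, SE 0.41, adjusted p = 0.0348, limma). *Lmo2*, an adaptor of the endothelial and blood transcription complex, had a log2 fold change of 0.63 (SE 0.12, adjusted p = 0.025, limma). *Sox17*, an arterial factor with the largest value after *Egln3*, was not called (0.78, SE 0.32, adjusted p = 0.129, limma). The list had 6 higher calls without Ctrl replicate 1, 0 without Ctrl replicate 2 or NIC eCA replicate 1 or 2 and 1 without NIC eCA replicate 3, and 2 of its genes, *Erg* and *Sox17*, are also endothelial markers.

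Genes known to be induced by VEGF in endothelial cells were read as the downstream side. Of 29 tested, 9 were called higher and 2 lower (all tested genes: 5.88% higher and 7.68% lower), and the median log2 fold change was 0.61 (0.39 with the endothelial covariate). *Ptgs2*, the inducible cyclooxygenase, had 37.2, 28.4 and 65.1 RPKM in Ctrl and 152, 198 and 227 RPKM in NIC eCA (log2 fold change 2.18, SE 0.29, adjusted p = 0.0111, limma). *Esm1*, a tip cell proteoglycan, had 7.27, 5.65 and 13.0 RPKM in Ctrl and 17.2, 26.7 and 43.1 RPKM in NIC eCA (log2 fold change 1.62, SE 0.36, adjusted p = 0.0348, limma). In both genes every NIC eCA library exceeded every control. *Igfbp3*, *Angpt2*, *Dusp5*, *Egr2*, *Kcne3*, *Plaur* and *Cited2* were also called higher, with log2 fold changes of 0.87 to 1.80.

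The 2 genes of this list called lower were *Egr3*, an immediate early factor, and *Klf2*, a flow-induced factor. *Klf2* had 131, 91.7 and 85.2 RPKM in Ctrl and 60.8, 62.7 and 50.5 RPKM in NIC eCA (log2 fold change -0.79, SE 0.19, adjusted p = 0.0376, limma), and *Egr3* had a log2 fold change of -0.76. *Egr3* passed the filter on low values only through Ctrl, with means of 1.90 RPKM in Ctrl and 0.706 RPKM in NIC eCA. Its change and the filter are thus not independent. Higher calls in the list numbered 5 without Ctrl replicate 2, 1 without NIC eCA replicate 1 and 0 without NIC eCA replicate 2, and lower calls numbered at most 1 without any 1 library. Several of these genes, *Ptgs2* and *Plaur* among them, are also known in myeloid cells, whose markers are given above.

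In the cytoplasmic relay below the receptors, 44 of 51 tested genes were not called, 3 were called higher and 4 lower, near the shares of all tested genes given above, and the median of -0.02 changed sign after trimmed mean scaling (0.05). *Map2k1*, a kinase upstream of ERK, had 35.6, 37.2 and 48.8 RPKM in Ctrl and 71.1, 66.4 and 69.2 RPKM in NIC eCA (log2 fold change 0.77, SE 0.15, adjusted p = 0.0259, limma). *Vav3*, a signaling protein of lymphoid and other cells, was also called higher, at 0.80. *Vav2*, its relative that acts in endothelium, had 6.50, 6.67 and 7.08 RPKM in Ctrl and 2.76, 3.23 and 3.55 RPKM in NIC eCA (log2 fold change -0.89, SE 0.12, adjusted p = 0.0111, limma). *Vav2* and *Vav3* thus lay apart in opposite directions, without overlap of the groups in either gene. *Pik3r2*, *Prkca* and the Kdr adaptor *Shb* were also called lower, at -1.11, -0.75 and -0.70. Without Ctrl replicate 2 there were 0 higher and 2 lower calls, and without NIC eCA replicate 1 or 2 there were 0 in both directions.

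Regulators and surface partners of the receptors gave 1 higher and 1 lower call among 23 tested, with a median of 0.34 (0.19 without Ctrl replicate 3, -0.09 with the endothelial covariate). Both counts were below the shares of all tested genes (5.88% higher and 7.68% lower), so the list does not stand out by them. *Cd93*, an endothelial and myeloid lectin that binds the matrix protein Mmrn2, had 113, 61.4 and 83.5 RPKM in Ctrl and 148, 152 and 159 RPKM in NIC eCA, a higher level in every NIC eCA library (log2 fold change 0.87, SE 0.21, adjusted p = 0.0403, limma). *Hspg2*, which encodes the basement membrane proteoglycan perlecan, had 53.0, 56.4 and 41.9 RPKM in Ctrl and 26.2, 31.0 and 35.7 RPKM in NIC eCA (log2 fold change -0.69, SE 0.17, adjusted p = 0.0397, limma). *Sdc2*, a syndecan, had the largest value not called (-0.95, SE 0.29, adjusted p = 0.0618, limma). There were 4 higher calls without Ctrl replicate 1 and 3 lower calls without NIC eCA replicate 3, and 0 of both without Ctrl replicate 2 or NIC eCA replicate 1 or 2.

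The other partners of the neuropilins, which are semaphorins, plexins and the adaptor *Gipc1*, had 9 of 13 genes tested, with 1 called higher, 2 lower and a median of 0.11 (0.01 without Ctrl replicate 1, -0.11 with the endothelial covariate). Across all tested genes 5.88% were called higher and 7.68% lower. *Sema3g*, a class 3 semaphorin of arterial endothelium that signals through Nrp2, had 13.8, 6.81 and 7.06 RPKM in Ctrl and 16.1, 27.3 and 19.4 RPKM in NIC eCA. All NIC eCA libraries were higher, and Ctrl replicate 1 was nearest to them (log2 fold change 1.14, SE 0.28, adjusted p = 0.0413, limma). *Plxna1*, a semaphorin receptor, had 14.0, 19.7 and 19.1 RPKM in Ctrl and 9.82, 9.77 and 12.0 RPKM in NIC eCA (log2 fold change -0.68, SE 0.16, adjusted p = 0.0381, limma), and *Plxna3* was called lower at -0.92. *Plxna3* passed the filter (a mean of at least 1 RPKM over both groups) only through Ctrl, with means of 1.91 RPKM in Ctrl and 0.495 RPKM in NIC eCA. For this gene the filter and the change are therefore not independent. With 1 library left out there were 0 to 2 calls in each direction, and 0 in both without Ctrl replicate 2 or 3 or NIC eCA replicate 1 or 2.

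The genes outside the family whose levels followed *Kdr*, *Flt1* and *Vegfa* most closely over the 6 libraries differed between the 3. The measure was Pearson's r of log2(RPKM + 1), a description over libraries that share the group difference. For *Kdr* they were *Myct1* (r = 0.993), *Apold1* (r = 0.992) and *Rgs3* (r = 0.989), none of them called. *Myct1* had 5.72, 2.50 and 3.47 RPKM in Ctrl and 3.80, 8.76 and 8.38 RPKM in NIC eCA, with NIC eCA replicate 1 among the controls as for *Kdr*. For *Flt1* they were *Ccrl2* (r = 0.997), *Clca1* (r = 0.996) and *Slc44a1* (r = 0.996), of which *Ccrl2* and *Slc44a1* were called higher. *Ccrl2*, a chemokine receptor-like gene, had 90.7, 44.2 and 64.2 RPKM in Ctrl and 119, 131 and 117 RPKM in NIC eCA.

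For *Vegfa* they were *Lilrb4* (r = 0.997), *Lsr* (r = 0.996) and *Mxd1* (r = 0.995), all called higher. *Lilrb4*, an inhibitory receptor of myeloid cells, had 79.0, 68.1 and 132 RPKM in Ctrl and 205, 194 and 258 RPKM in NIC eCA, the same order of controls as *Vegfa*. Within the family, *Vegfa* and *Pgf* followed each other closely (r = 0.991), *Flt1* followed *Flt4* (r = 0.955) and *Kdr* (r = 0.87), and *Nrp1* and *Nrp2* ran opposite (r = -0.845), each over the same 6 libraries.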

How the data were processed

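RNA of CD31 bead-selected TECs from 3 Ctrl and 3 NIC eCA LLC tumors was measured by bulk RNA-seq. The authors deposited RPKM values per row, which the submitters' processing notes tie to TopHat2 and mm9. Row positions fit GRCm38, however. No source used here names how reads were counted. RPKM times length gave whole reads (within 0.05) for 100% of the values checked, which gave the depth of each library, 27793301 to 30769916 reads over RefSeq rows. Depth is similar between libraries and sets counting error only. Members had 144 (*Vegfb*) to 19479 (*Vegfa*) reads per library.

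From the deposited RPKM, log2(RPKM + 1) of RefSeq rows with a mean of at least 1 RPKM was compared with limma 3.58.1 (R 4.3.3, mean-variance trend, two-sided), tested on simulated data first. P-values were adjusted by Benjamini-Hochberg over all 12320 tested genes, with a threshold of 0.05. All 9 members passed the filter, which used the mean over both groups. Fold changes of genes with low RPKM are understated by the pseudocount. Single values were compared by two-sided exact permutation tests in Python 3.11.15. Alternatives were quantile normalization, trimmed mean scaling, no filter, a stricter filter (mean of 5 RPKM or more), a smaller pseudocount (0.1), no trend, a replicate block, voom on recovered reads, all rows, an endothelial marker covariate and leaving out each library. List counts with a library left out and list medians under alternatives were added after the data were seen.

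Members and lists were chosen with earlier results of these data known. Named genes are the members, every called gene of a pathway list (filled to 3 with the largest log2 fold changes; 1 called gene is not reported here), the most abundant gene of each marker list, markers at 0 and the 3 genes with the highest r. Outside this rule, further markers (*Gp6*, *Itga2b*, *Ppbp*, *Prox1*, *Reln*, *Mmrn1*, *Lyve1*, *Lum*, *Pdgfra*, *Postn*, *Erg*), *Notch1* (the gene of the transgene), *Gipc1*, *Rn45s*, *4930487H11Rik* and the FANTOM3 rows were named after their values were seen. Libraries within a group came from different tumors as far as the labels say, and p-values measure the spread between them. A spreadsheet had turned 27 row names into dates, and these rows stayed in the tests.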

Additional observations from a re-analysis of the deposited data

How the results depend on the processing

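With 3 libraries a group, calls near the threshold depended on the setting, while no log2 fold change of the 9 members or of *Figf* changed sign under any alternative. The causes of the changes below were not tested (list counts and medians were added after the data were seen), except that fewer libraries or more rows tested change a call by construction.

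Genes called higher and lower numbered 725 and 946 as reported. They numbered 434 and 319 after quantile normalization, 42 and 9 without the filter, 629 and 579 with the stricter filter (5 RPKM), 1026 and 2185 with FANTOM3 rows, and 0 and 0 with the endothelial covariate in limma. Leaving out 1 library gave 26 to 913 higher and 1 to 832 lower. Members called higher numbered 3 as reported, 1 after quantile normalization, 0 without the filter, 0 with the covariate and 0 to 4 with 1 library left out. In each setting with none called, *Vegfa*, *Pgf* and *Flt1* kept an unadjusted p under 0.05, as did 5679 of 23473 genes without the filter, and 2359 with the covariate, 3011 without NIC eCA replicate 1 and 2741 without NIC eCA replicate 2, each of 12320.

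*Vegfa* lost its call after quantile normalization (log2 fold change 0.98), without the filter (1.26) and with the covariate (1.30), and ran from 1.07 to 1.54 with 1 library left out. *Pgf* lost it without the filter (1.81) and with the covariate (1.79), and ran from 1.52 to 2.13. *Flt1* lost it after quantile normalization (1.07), without the filter (1.03) and with the covariate (0.47), and ran from 0.74 to 1.33. *Flt4* ran from 0.33 to 0.79, was 0.12 with the covariate, and was called only without Ctrl replicate 1.

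With 1 library left out, differences relative to endothelial markers ran from 0.12 to 0.98 for *Vegfa*, -1.85 to -0.74 for *Vegfb*, -1.03 to -0.08 for *Vegfc*, 0.71 to 1.56 for *Pgf*, 0.27 to 0.47 for *Flt1*, -0.15 to 0.15 for *Kdr*, -0.27 to -0.01 for *Flt4* (0.03 with the smaller pseudocount), -0.77 to -0.37 for *Nrp1* and -1.47 to -0.67 for *Nrp2*. Log2 differences of ratios ran from 0.19 to 0.61 for *Flt1* over *Kdr*, -0.21 to 0.23 for *Flt4* over *Kdr* (-0.12 with a pseudocount of 1), 0.31 to 0.73 for *Nrp1* over *Nrp2*, 0.57 to 0.80 for *Pgf* over *Vegfa*, -2.47 to -1.47 for *Vegfb* over *Vegfa* and -1.30 to -0.65 for *Vegfc* over *Vegfa*.

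With the replicate number as a replicate block, 327 genes were called higher and 209 lower, 2 members remained called (*Vegfa* and *Pgf*), *Flt1* had a log2 fold change of 1.03 (adjusted p = 0.0676, limma), and *Figf* lost its call (-1.14, adjusted p = 0.0531, limma). The study's methods speak of pairs of mice, without saying which libraries form a pair. The values do not show that equal numbers mark such pairs: correlations of deviations from the group mean were 0.122, -0.343 and -0.178 for equal numbers and up to 0.438 for unequal ones, and not every sample correlated best with its own number. Some intron rows hold few reads, 0 to 16 in a library for 1 row in *Nrp2*.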
